A study of Oryza sativa Indica Group with 2 samples.

Results

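Dicer-like (DCL) proteins cut double-stranded RNA into small RNAs, and RNA-dependent RNA polymerases (RDR) copy single-stranded transcripts into the double strands that most of them cut. The resulting small RNAs guide Argonaute proteins to messenger RNAs or to chromatin. In grasses this machinery is best known from anthers, where long non-coding transcripts are cleaved, made double-stranded by RDR6 and diced at regular steps into phased small RNAs, by DCL4 before meiosis and by DCL5 around meiosis. The 9 loci described here are the 6 DCL and 3 RDR genes given by name and locus, out of 55337 loci in the table: *DCL1* (LOC_Os03g02970), *DCL2a* (LOC_Os03g38740), *DCL2b* (LOC_Os09g14610), *DCL3a* (LOC_Os01g68120), *DCL3b*, which is called *DCL5* here (LOC_Os10g34430), *DCL4* (LOC_Os04g43050), *RDR1* (LOC_Os02g50330), *RDR2* (LOC_Os04g39160) and *RDR6* (LOC_Os01g34350). The rule names them by identity, and they were picked with earlier results of these data known. They lie on 6 chromosomes, and the chromosome is the number after "Os" in each locus name.

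The samples were spikelets of young panicles in meiosis, pooled from several panicles per genotype. The *Osam1* mutant was obtained by gamma irradiation of the *indica* rice variety Zhongxian 3037 and carries a small deletion in *OsAM1* that creates an early stop codon. Its male meiocytes stop at leptotene. The other genotype was unmutated Zhongxian 3037, grown in the same paddy field. Poly(A) RNA of each genotype gave 1 library, so no value below has a replicate error, no test was possible, and a difference between the libraries cannot be told apart from a difference between any other batches of panicles.

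Levels are FPKM, fragments normalised to transcript length and library size, and for a locus with several transcript models the FPKM of its models were added up. Because of the scaling by length, levels of different loci can be set side by side, but only roughly. Reads across exon junctions were not matched, so loci with many junctions may be listed too low, and this was not corrected. Ratios are log2 of FPKM + 1 in the *Osam1*-labelled library over FPKM + 1 in the wild-type-labelled library, and a ratio of at least 1 in size is called at least 2-fold. With 1 FPKM added, changes of low values are understated. The FPKM of all transcript models summed to 1376088 in the *Osam1*-labelled library and 1142813 in the wild-type-labelled library. Sums of loci given below were not scaled to these totals. The headings of the columns write the genotype in capitals for the *Osam1* label and in small letters for the wild-type label, so each direction given here rests on the submitters' labels. *OsAM1* itself (LOC_Os03g44760) had 3.76 FPKM in the *Osam1*-labelled library, against 15.1 FPKM in the wild-type-labelled library, summed over 5 transcript models. Models 3, 4 and 5 had equal values, each 0.63 FPKM in the former library and 5.04 FPKM in the latter. The sums may thus count the same reads more than once. Model 2 went the other way, with 1.87 FPKM in the former and 0 in the latter, and model 1 was listed at 0 in both. An early stop codon need not lower the RNA, so the level of *OsAM1* does not settle the labels. Whole-read steps among low values gave the wild-type-labelled library 2.37 times the reads of the *Osam1*-labelled one. With the columns as labelled, that is the reverse of the order of the study's own read totals, so which column belongs to which genotype is in doubt, and every direction below turns round if the columns were exchanged. Single read numbers could not be recovered, so the counting error of each locus is unknown.

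The tissue label was checked with marker genes. All 6 meiocyte genes of the list (*MEL1*, *PAIR1*, *PAIR2*, *PAIR3*, *ZEP1* and *REC8*) were above 0 in both libraries, at 2.21 to 22.1 FPKM in the *Osam1*-labelled library and 1.40 to 19.6 FPKM in the wild-type-labelled library. Their sums were 58.3 FPKM in the *Osam1*-labelled library and 44.1 FPKM in the wild-type-labelled library. Of the 6, only *ZEP1*, which encodes a protein of the synaptonemal complex, was at least 2-fold apart, with 16.9 FPKM in the *Osam1*-labelled library, against 6.6 FPKM in the wild-type-labelled library, a log2 ratio of 1.24. The 5 floral organ genes (*MADS1*, *MADS3*, *MADS58*, *MADS6* and *DL*) had a summed level of 494.9 FPKM in the *Osam1*-labelled library, against 286.6 FPKM in the wild-type-labelled library. *MADS1* was the largest part of both sums, with 246.9 FPKM in the former and 125.8 FPKM in the latter. *DL* and *MADS58* were at least 2-fold higher in the former, with log2 ratios of 1.31 and 1.03. *MADS3* was slightly lower there, at 45.6 FPKM against 48.8 FPKM. The 4 tapetum regulators had sums of 88.8 FPKM in the *Osam1*-labelled library and 98.2 FPKM in the wild-type-labelled library, but single regulators differed widely. *UDT1*, needed early in tapetum development, had 39.1 FPKM in the *Osam1*-labelled library, against 5.79 FPKM in the wild-type-labelled library. *TIP2*, which acts after it in the anther wall, was listed at 0 in the *Osam1*-labelled library and had 17.2 FPKM in the wild-type-labelled library. *TDR* had 17.4 FPKM in the *Osam1*-labelled library, against 33.4 FPKM in the wild-type-labelled library. *EAT1* had 32.4 FPKM in the former, against 41.8 FPKM in the latter. Both *TDR* and *EAT1* thus lay within 2-fold, on the low side. The green tissue genes *RBCS* and *CAB* had a sum of 84.2 FPKM in the *Osam1*-labelled library, against 63.2 FPKM in the wild-type-labelled library. These marker levels thus differed between the libraries beside the values below, and their part in those values was not tested. The FPKM summed over all loci was also higher in the *Osam1*-labelled library. In whole spikelets, fewer cells of a type and less RNA per cell cannot be told apart.

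All 9 DCL and RDR loci were above 0 in both libraries. Their levels spanned 9.47 to 63.5 FPKM in the *Osam1*-labelled library and 7.22 to 90.5 FPKM in the wild-type-labelled library. *DCL1* was the one locus at least 2-fold lower in the *Osam1*-labelled library, and 0 were at least 2-fold higher with 1 FPKM added. Among all 55337 loci, 20.8% were at least 2-fold apart, 11.2% lower and 9.57% higher in the *Osam1*-labelled library. Of all loci, 21837 averaged 1 FPKM or more, so loci of like level are the closer background. Among loci whose mean level was 10 to below 30 FPKM, where 5 of the 9 lie, 36.4% were at least 2-fold apart and 19.2% were lower. Among those of 30 to below 100 FPKM the share at least 2-fold apart was 24.9%. A count of 1 in 9 is therefore no larger a share than loci of these levels showed in general. With models summed, each of the 3 *RDR* loci among the 9 had the higher value in the *Osam1*-labelled library. Of the 6 *DCL* loci, 4 had the lower one. Outside the 9, *RDR4* was higher and *RDR3* lower in the *Osam1*-labelled library. For *RDR2* the log2 ratio was only 0.10, and 0.04 after scaling by the median ratio. Over the 21837 loci averaging 1 FPKM or more, the median log2 ratio was 0.03. Higher and lower values were thus about equally common in general, and a contrast between the *RDR* and *DCL* loci was not tested.

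**Figure D1:**
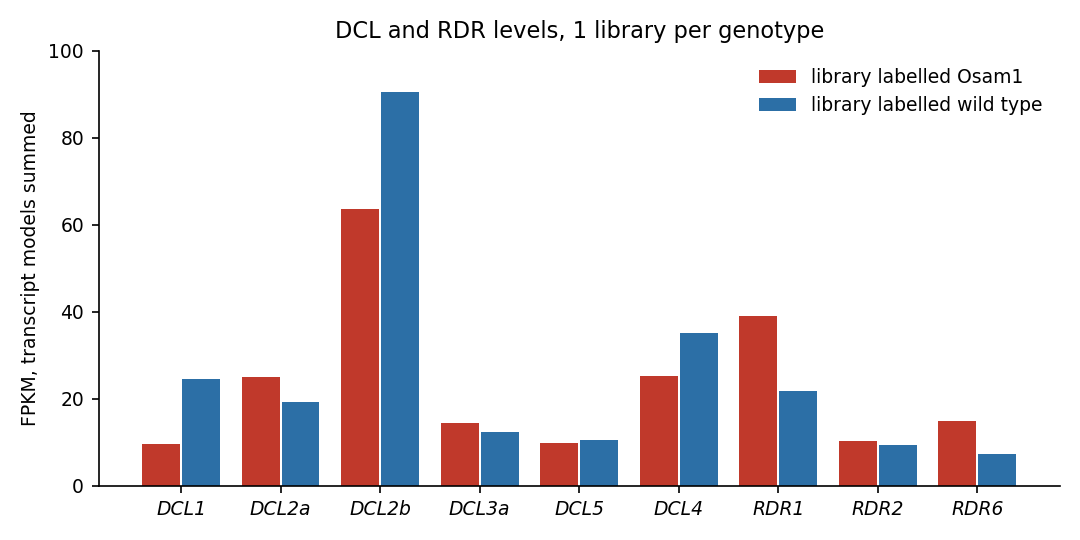
Levels of the 6 *DCL* and 3 *RDR* loci in FPKM, with transcript models summed, as bars from 0 for the library labelled *Osam1* (left bar of each pair) and the library labelled wild type (right bar). With 1 library per genotype there are no error bars, and *DCL2b* is the highest locus in both libraries, at 63.5 FPKM in the *Osam1*-labelled and 90.5 FPKM in the wild-type-labelled one.

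*DCL1* cuts the hairpin precursors of microRNAs, which make up the pathway that needs no RDR. It had 9.47 FPKM in the *Osam1*-labelled library, against 24.5 FPKM in the wild-type-labelled library, a log2 ratio of -1.28. It was the lowest of the 9 loci in the *Osam1*-labelled library and the third highest in the wild-type-labelled one. No other locus moved by as many places. *DCL1* has 1 transcript model in the table, so no choice between models enters its ratio. In its class of 5936 loci (mean level from 10 to below 30 FPKM), 25.4% had a ratio at least as far from 0, and 14.1% were at least as far on the low side.

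*DCL3a* and *RDR2* belong to the pathway that silences transposons. In *Arabidopsis*, RDR2 copies the transcripts of RNA polymerase IV and DCL3 dices the product into the small RNAs that direct DNA methylation, and rice *DCL3a* makes small RNAs from repeats. *DCL3a* had 14.4 FPKM in the *Osam1*-labelled library, against 12.4 FPKM in the wild-type-labelled library, a log2 ratio of 0.20. *RDR2* had 10.2 FPKM in the *Osam1*-labelled library, against 9.41 FPKM in the wild-type-labelled library, a log2 ratio of 0.10. Both ratios lay close to 0, and 83.2% and 95.3% of the loci in their classes of level had ratios at least as far from 0. The level of *RDR2* relative to *DCL3a* within a library, which no scaling between libraries can change, was 0.708 in the *Osam1*-labelled library and 0.762 in the wild-type-labelled library. This pair had the most even ratio of the 12 within-library pairs that were computed.

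*DCL5* arose from a *DCL3*-type gene and in rice and maize makes the longer class of phased small RNAs in anthers. It had 9.70 FPKM in the *Osam1*-labelled library, against 10.4 FPKM in the wild-type-labelled library, a log2 ratio of -0.10. Of the loci in its class, 91.7% were at least as far from 0. In both libraries *DCL5* was below *DCL3a*, at 0.675 times its level in the *Osam1*-labelled library and 0.845 times in the wild-type-labelled library. It was among the 3 lowest of the 9 loci in each library. Of the loci above 0, 43.0% lay below it in the *Osam1*-labelled library and 46.7% in the wild-type-labelled library.

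*RDR6*, known in rice as *SHL2*, and *DCL4*, known as *SHO1*, make trans-acting and phased small RNAs, and rice mutants in either form defective shoots. *RDR6* had 14.8 FPKM in the *Osam1*-labelled library, against 7.22 FPKM in the wild-type-labelled library. It was the fifth highest locus in the *Osam1*-labelled library and the lowest of the 9 in the wild-type-labelled one. Its log2 ratio was 0.94, just inside 2-fold, and became 1.02 with 0.1 FPKM added and 1.03 with 0.01 FPKM added. The plain quotient of the FPKM values was 2.04. So whether *RDR6* counts as 2-fold higher depends on the added value, and 38.8% of the loci in its class had a ratio at least as far from 0.

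*DCL4* had summed levels of 25.3 FPKM in the *Osam1*-labelled library and 35.1 FPKM in the wild-type-labelled library, a log2 ratio of -0.46. Its transcript models did not go the same way. Model 1 had 14.3 FPKM in the *Osam1*-labelled library, against 8.33 FPKM in the wild-type-labelled library, a log2 ratio of 0.71. Model 4 had 11.0 FPKM in the *Osam1*-labelled library, against 26.8 FPKM in the wild-type-labelled library, a log2 ratio of -1.21. Model 1 thus made up 56.5% of the summed level in the *Osam1*-labelled library and 23.7% in the wild-type-labelled library. The sign for *DCL4* depends on the model that is read, and a sum that adds reads shared by both models may count them more than once.

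Set against its dicers within each library, *RDR6* stood at 0.585 times the summed level of *DCL4* in the *Osam1*-labelled library and 0.206 times in the wild-type-labelled library. Against *DCL4* model 1 alone the quotient was 1.03 in the *Osam1*-labelled library and 0.867 in the wild-type-labelled library, and against model 4 alone it was 1.34 in the *Osam1*-labelled library and 0.270 in the wild-type-labelled library. These model-by-model quotients were added after the values had been seen. Against *DCL5*, which has 1 model, *RDR6* stood at 1.52 in the *Osam1*-labelled library and 0.692 in the wild-type-labelled library. *RDR6* was the higher of the pair in the one and *DCL5* in the other.

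The paralogs *DCL2a* and *DCL2b* are counterparts of *Arabidopsis* DCL2, which dices viral double-stranded RNA. *DCL2b* was the most abundant of the 9 loci in both libraries, with 63.5 FPKM in the *Osam1*-labelled library, against 90.5 FPKM in the wild-type-labelled library, and a log2 ratio of -0.50. Of its class of loci, 52.5% had ratios at least as far from 0. Of its 3 transcript models, model 1 was listed at 0 in both libraries. Model 2 had 27.6 FPKM in the *Osam1*-labelled library and 24.3 FPKM in the wild-type-labelled library. Model 3 had 35.9 FPKM in the *Osam1*-labelled library, against 66.2 FPKM in the wild-type-labelled library, so the difference in the sum lay in model 3. *DCL2a* had 24.9 FPKM in the *Osam1*-labelled library, against 19.1 FPKM in the wild-type-labelled library, a log2 ratio of 0.36. *DCL2b* was 2.55 times as high as *DCL2a* in the *Osam1*-labelled library and 4.73 times as high in the wild-type-labelled library. Reads that match both copies could have been divided between them, which makes the single levels uncertain. Together the copies had 88.4 FPKM in the *Osam1*-labelled library and 109.6 FPKM in the wild-type-labelled library.

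**Figure D2:**
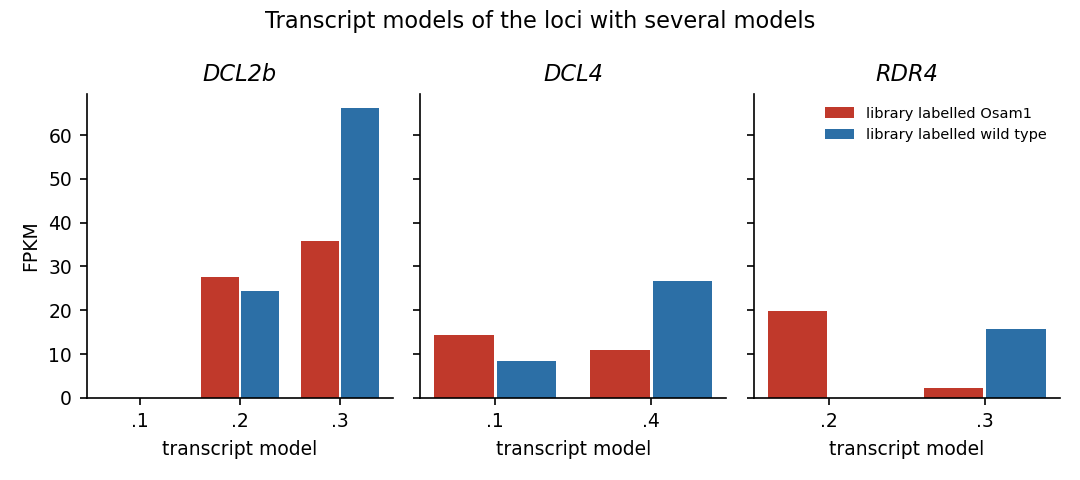
FPKM of each listed transcript model of *DCL2b*, *DCL4* and the related locus *RDR4*, for the library labelled *Osam1* (left bar of each pair) and the library labelled wild type (right bar). Model 4 of *DCL4* and model 3 of *DCL2b* and *RDR4* are lower in the *Osam1*-labelled library, while model 1 of *DCL4* and model 2 of *DCL2b* and *RDR4* are higher there.

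Opposite directions among models were common in the table. Of the 1606 loci with at least 2 models of a mean of 10 FPKM or more, 703 (43.8%) had models with ratios of opposite sign, and in 658 (41.0%) these lay at least 1 log2 unit apart. The models of *DCL4*, with ratios of 0.71 and -1.21, differed by more than that. The other 7 loci have 1 model each, and none of the 11 member models above 0 shared its pair of values with another row of the table.

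*RDR1*, which in plants amplifies small RNAs during virus infection, was the most abundant *RDR* in both libraries. It had 39.0 FPKM in the *Osam1*-labelled library, against 21.9 FPKM in the wild-type-labelled library, a log2 ratio of 0.81. In its class of 5023 loci (mean level from 30 to below 100 FPKM), 33.3% were at least as far from 0. *RDR1* was 2.64 times as high as *RDR6* in the *Osam1*-labelled library and 3.03 times as high in the wild-type-labelled library. Against *RDR2* it was 3.83 times as high in the *Osam1*-labelled library and 2.32 times in the wild-type-labelled library.

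Summed by class, the 6 *DCL* loci had 147.2 FPKM in the *Osam1*-labelled library and 192.0 FPKM in the wild-type-labelled library. The 3 *RDR* loci had 63.9 FPKM in the *Osam1*-labelled library, where the total over all loci was also higher, and 38.5 FPKM in the wild-type-labelled library. The *RDR* sum was thus 0.434 times the *DCL* sum in the *Osam1*-labelled library and 0.20 times in the wild-type-labelled library. Taking the highest transcript model of each locus in place of the sum, a setting added after the values had been seen, gave 0.589 in the *Osam1*-labelled library and 0.242 in the wild-type-labelled library. The medians of the log2 ratios were -0.28 over the *DCL* loci, 0.81 over the *RDR* loci and 0.10 over all 9, beside a median of 0.03 over the 21837 loci averaging 1 FPKM or more. These are medians of few loci, and nothing particular to either class was tested.

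**Figure D3:**
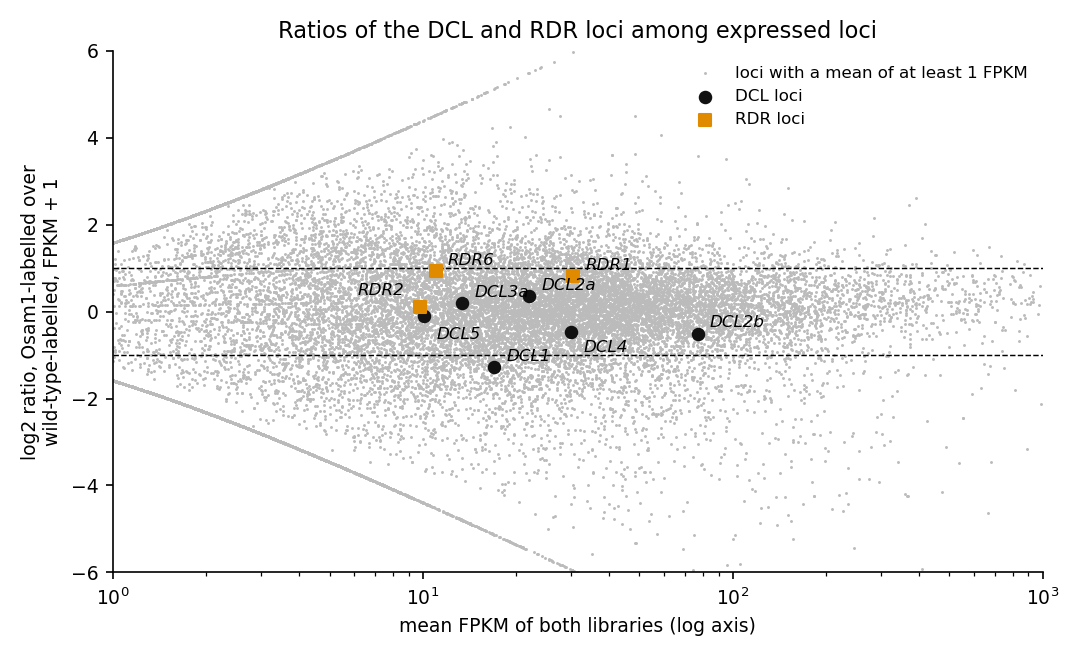
Log2 ratio of FPKM + 1, *Osam1*-labelled over wild-type-labelled library, against the mean FPKM of both libraries on a log axis, for 21837 loci (grey), the *DCL* loci (black circles) and the *RDR* loci (orange squares); dashed lines mark 2-fold. *DCL1* at -1.28 lies outside the lines and *RDR6* at 0.94 just inside, each amid many grey loci of its level, and 185 loci lie beyond the axes.

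In order of level, the *Osam1*-labelled library ran from *DCL2b* over *RDR1*, *DCL4*, *DCL2a*, *RDR6*, *DCL3a*, *RDR2* and *DCL5* to *DCL1*. The wild-type-labelled library ran from *DCL2b* over *DCL4*, *DCL1*, *RDR1*, *DCL2a*, *DCL3a*, *DCL5* and *RDR2* to *RDR6*. Without replicates no neighbours in these orders can be said to differ. With the highest transcript model in place of the sum, *RDR1* at 39.0 FPKM passed *DCL2b* at 35.9 FPKM in the *Osam1*-labelled library, and *DCL4* was the sixth there. *DCL1* was again the lowest in that library and the third highest in the other.

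The loci that work with these enzymes were taken from a chosen list of 19, which holds further polymerases, partners and 12 Argonautes. The list does not cover the whole pathway. With 1 FPKM added, 0 of the 19 were at least 2-fold higher and 3 were at least 2-fold lower in the *Osam1*-labelled library, and the median log2 ratio was 0.07. Over all loci these shares were 9.57% higher and 11.2% lower. *NRPD1a* is a gene for the largest subunit of RNA polymerase IV, which supplies RDR2 with transcripts. This gene had 5.14 FPKM in the *Osam1*-labelled library, against 13.3 FPKM in the wild-type-labelled library, a log2 ratio of -1.22. *NRPE1*, the corresponding subunit of RNA polymerase V, had 21.7 FPKM in the *Osam1*-labelled library, against 13.7 FPKM in the wild-type-labelled library, a log2 ratio of 0.62. *AGO7*, known as *SHL4*, binds the microRNA that starts the trans-acting pathway of RDR6 and DCL4. It was listed at 0 in the *Osam1*-labelled library and at 3.5 FPKM in the wild-type-labelled library, so no fold is given. *AGO2* had 2.35 FPKM in the *Osam1*-labelled library, against 7.36 FPKM in the wild-type-labelled library, a log2 ratio of -1.32. In the classes of level of *NRPD1a* and *AGO2*, 50.7% and 48.2% of the loci had ratios at least as far from 0, so ratios of this size were common there. How many reads stand behind these low levels is unknown.

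The remaining 16 loci lay within 2-fold with 1 FPKM added. For *AGO3* and *AGO18* this rests on the added value. *AGO3* had 0.4 FPKM in the *Osam1*-labelled library, against 1.61 FPKM in the wild-type-labelled library, a plain quotient of 0.248. *AGO18* had 1.5 FPKM in the *Osam1*-labelled library, against 3.71 FPKM in the wild-type-labelled library, a plain quotient of 0.404. Partners of RDR6 are *SGS3a* and *SGS3b*, neighbouring genes whose protein stabilises the template in *Arabidopsis*. *SGS3a* had 45.9 FPKM in the *Osam1*-labelled library, against 70.9 FPKM in the wild-type-labelled library, and *SGS3b* had 64.0 FPKM in the *Osam1*-labelled library, against 61.0 FPKM in the wild-type-labelled library. Both exceeded *RDR6* and *DCL4* in each library. *WAF1*, the rice HEN1 methyltransferase that protects the ends of small RNAs, had 6.52 FPKM in the *Osam1*-labelled library, against 10.8 FPKM in the wild-type-labelled library. *RDR3* had 3.72 FPKM in the *Osam1*-labelled library, against 4.27 FPKM in the wild-type-labelled library. Its neighbour *RDR4* had sums of 22.2 FPKM in the *Osam1*-labelled library and 15.6 FPKM in the wild-type-labelled library, but its models exchanged places. Model 2 had 19.9 FPKM in the *Osam1*-labelled library and was listed at 0 in the wild-type-labelled library, and model 3 had 2.27 FPKM in the *Osam1*-labelled library, against 15.6 FPKM in the wild-type-labelled library.

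The 12 Argonautes of the list, which receive the products of the dicers, had a summed level of 636.4 FPKM in the *Osam1*-labelled library and 522.2 FPKM in the wild-type-labelled library. All loci together also had the higher sum in the *Osam1*-labelled library, at 1376088 FPKM against 1142813 FPKM. The higher sum is thus nothing particular to the Argonautes. Among them *AGO1d* had 158.0 FPKM in the *Osam1*-labelled library, against 99.9 FPKM in the wild-type-labelled library, as the sum of 2 models with equal values. Reads shared by these models may be counted more than once, both here and in the sum of the 12 Argonautes. Sums of *AGO4a*, *AGO4b* and *AGO1b* hide models that went opposite ways. Model 1 of these had 92.5, 56.7 and 46.2 FPKM in the *Osam1*-labelled library, against 0.26, 0 and 0 FPKM in the wild-type-labelled library. Model 2 had 0, 0 and 101.5 FPKM in the former, against 109.3, 34.6 and 135.4 FPKM in the latter. *MEL1*, which binds phased small RNAs in germ cells, had 22.1 FPKM in the *Osam1*-labelled library, against 19.6 FPKM in the wild-type-labelled library.

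**Figure D4:**
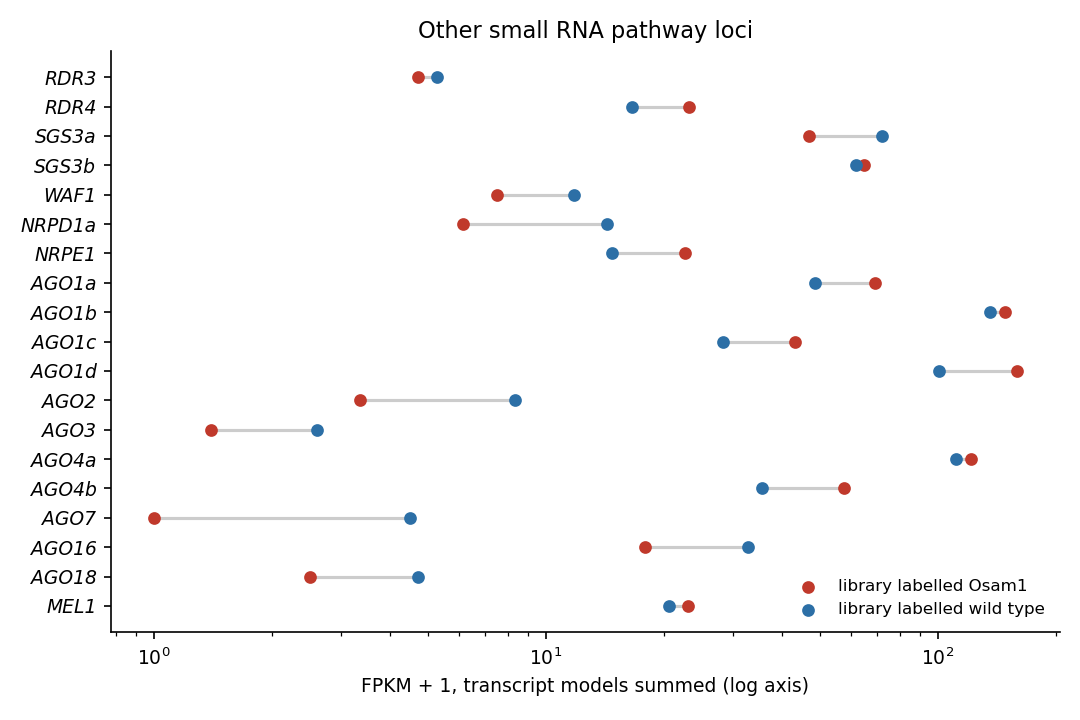
FPKM + 1 on a log axis for the 19 small RNA pathway loci of the chosen list, with a red point for the library labelled *Osam1*, a blue point for the library labelled wild type and a grey line joining them. The longest line belongs to *AGO7*, listed at 0 in the *Osam1*-labelled library, and those of *AGO1b*, *AGO4a*, *SGS3b* and *MEL1* are short. For *AGO1b* and *AGO4a* the points are sums over models that went opposite ways.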

How the data were processed

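Spikelet RNA of *Osam1* and wild-type rice was sequenced without strand information as pairs of 100 bp reads after 18 cycles of PCR, 1 library per genotype. The authors removed adaptors and low-quality reads, aligned with SOAPaligner/soap2 to the genome of the Rice Genome Annotation Project (release not given in the sources used here) and computed expression with ERANGE. Reads across exon junctions were not matched. The deposited unit is FPKM per transcript model, which the methods call RPKM. Antisense transcripts cannot be told apart, and no read counts were used.

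The table has 65535 rows and stops at locus 37610 of chromosome 12, after all 9 members. Members and lists were chosen with earlier results of these data known. The gene names of the loci come from general knowledge. Text values cover all members, *OsAM1*, and those of the list past 2-fold, and the other list genes and markers given were chosen after their values were seen.

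Relative depth came from 3704 loci with 1 model and 1 to 10 FPKM in the *Osam1*-labelled library, as the depth ratio with the highest likelihood if ratios are those of whole reads. The next best was 4.73. Both this and the 2-fold calls were tested on simulated data. The simulated calls used only loci averaging at least 30 FPKM, an assumed number of reads and counting error alone. They do not cover loci of lower level such as *DCL1* and *RDR6*. Alternatives were added values of 0.1 and 0.01 FPKM, scaling by the median ratio or the 75th percentile, the highest or the first listed transcript model, a mean of at least 1 FPKM, and exchanged columns. Calculations ran in Python 3.11.15 with pandas 2.3.3, numpy 2.4.6 and scipy 1.17.1, and figures were drawn with matplotlib 3.10.9.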

Additional observations from a re-analysis of the deposited data

How the results depend on the processing

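No paired analysis was possible because each genotype has 1 library, and for the same reason no library could be left out. Scaling by the median ratio or the 75th percentile kept the direction and the side of 2-fold of all 9 *DCL* and *RDR* loci, and so did the highest transcript model. The highest model was taken in each library by itself. For *DCL4* it set model 1 in the *Osam1*-labelled library against model 4 in the other, so it cannot check the direction of *DCL4*. With the first listed model, the log2 ratio of *DCL4* became 0.71 and that of *DCL2b* became 0. The number of these loci at least 2-fold higher in the *Osam1*-labelled library was 0 with 1 FPKM added and 1, *RDR6*, with 0.1 or 0.01 FPKM added. In the list of 19, the number at least 2-fold lower was 3 with 1 FPKM added and 5 with 0.1 or 0.01 FPKM added, which brought in *AGO3* and *AGO18*. With the first listed transcript model, the members' summed level was 136.7 FPKM in the *Osam1*-labelled library and 113.2 FPKM in the wild-type-labelled library, since model 1 of *DCL2b* is listed at 0 and model 4 of *DCL4* is left out, and 4 loci of the list (*RDR4*, *AGO1b*, *AGO4a* and *AGO4b*) were at least 2-fold higher. With the columns exchanged every sign turns round by construction: 1 member is at least 2-fold higher and 0 lower, 3 list loci are higher and 0 lower, the members' median log2 ratio is -0.10, and the log2 ratios become 1.28 for *DCL1*, 1.22 for *NRPD1a*, 1.32 for *AGO2* and 2.17 for *AGO7*, the last being set by the added 1 FPKM and no measured fold, since *AGO7* is listed at 0 in 1 library. Without counts of reads, the precision of a level of a few FPKM is unknown.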
